A study of Mus musculus with 45 samples.

Results

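Claudins are membrane proteins that form the strands of tight junctions, the belts that close the space between neighbouring epithelial cells just below the apical surface. The 10 claudin genes described here (Cldn1, Cldn3, Cldn4, Cldn5, Cldn6, Cldn7, Cldn9, Cldn10, Cldn11 and Cldn12) were taken by name, as the rows of the gene count table whose Ensembl identifiers map to these symbols, and make up 10 of the 54532 genes in the table. Organoids were grown as clones from wild-type R1 cells, a mouse embryonic stem (ES) cell line, in Matrigel (a basement membrane gel) and N2B27 medium (a serum-free neural induction medium). From day 2, organoids stayed in this medium (untreated) or received all-trans retinoic acid (RA) at 250 nM, a vitamin A derivative that acts through nuclear receptors and patterns the neural tube. Whole organoids were collected on day 2, 8 h later, and then every 12 h from 18 h to 78 h, with 3 biological replicates in each of 15 conditions (45 libraries), to ask which genes respond to RA over time. No group carried an engineered allele, and the untreated organoids of the same hour were the control for each RA group.

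Some claudins mainly seal the junction, as Cldn1, Cldn3 and Cldn5 are known to do, whereas forms of Cldn10 make channels for small ions. Cldn4, Cldn6 and Cldn7 are typical of simple and embryonic epithelia, Cldn5 is best known from blood vessel endothelium, and Cldn11 is best known from myelin and from Sertoli cells. The closing neural tube is known to lose occludin, another tight junction membrane protein, while it keeps the cytoplasmic scaffold protein ZO-1 at apical adherens junctions.

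Total counts ranged from 17298632 to 39688686 per library, so that a floor of 3 counts was worth 0.0756 to 0.1734 CPM (counts relative to the library total, on the usual CPM scale). Levels below are CPM scaled by edgeR's trimmed mean of M values (TMM), with the SD of 3 libraries unless stated otherwise, and p-values measure the spread between these libraries. The samples' label of neural tissue was set beside 8 neural progenitor markers. None of the 8 was at 0 throughout any condition, and their summed level was 452 to 467 CPM on day 2, 838 to 927 CPM in the untreated libraries of 78 h and 994 to 1115 CPM in the RA libraries of 78 h. The 8 pluripotency and epiblast markers summed to 4052 to 4328 CPM on day 2, to 1286 to 1461 CPM in the untreated and to 346 to 585 CPM in the RA libraries of 78 h. In such bulk samples, fewer cells of a type and less RNA per cell cannot be told apart. The libraries also differed in the mean level of 4 genes of the Y chromosome, which was 1.22 to 3.73 CPM in 6 libraries (RA 8 h replicate 3, RA 30 h replicates 1 and 3, and all 3 untreated libraries of 30 h) and 22.6 to 89.9 CPM in the other 39. Results at 8 h and 30 h rest in part on these 6 libraries. Within the other 39 this level was also lower late in the course. It was 68.9, 71.3 and 74.8 CPM on day 2. At 78 h it was 32, 29.2 and 28.4 CPM without RA and 35.5, 30.4 and 28 CPM with RA, so that comparisons of late times with day 2 span this difference.

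The claudins were unequally abundant, and late in the course a different member led in each arm. Per length, in CPM per kilobase of merged exons, Cldn6 had the highest mean in 12 of the 15 conditions. Cldn4 had it in the other 3, the RA organoids of 54, 66 and 78 h. On day 2, Cldn6 stood at 49.1 ± 0.118 CPM per kb, Cldn4 at 32.9 ± 2.6 and Cldn12 at 11.5 ± 1.12 (SD, n = 3), and the ranges of these neighbours in the order did not overlap. Cldn7 followed at 5.91, Cldn5 at 3.53 and Cldn3 at 2.39 CPM per kb, while Cldn9, Cldn1, Cldn11 and Cldn10 were each under 1 CPM per kb. By 78 h without RA, the order was Cldn6 (20.9 ± 2.24 CPM per kb), Cldn12 (16.2 ± 0.444) and Cldn4 (10 ± 1.47), again with ranges that did not overlap. With RA at 78 h it was Cldn4 (29.7 ± 3.3 CPM per kb), Cldn6 (23.2 ± 2.48) and Cldn12 (16.3 ± 0.041), and Cldn4 lay above Cldn6 in every library. At 54 h and 66 h with RA, Cldn4 also had the higher mean, but its range overlapped that of Cldn6. With RA at 8, 30 and 42 h the mean of Cldn6 was the higher, and these ranges overlapped too. At 42 h with RA the means were nearly level, at 22.3 ± 4.2 CPM per kb for Cldn6 and 22.1 ± 0.733 for Cldn4. Low members were often not separable, as with Cldn10 and Cldn11 on day 2 and Cldn10 and Cldn1 in the RA libraries of 78 h, whose ranges overlapped.

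Summed over the 10 genes, the level per length was 106 ± 3.17 CPM per kb on day 2. It was 61.9 ± 3.33 in the untreated organoids of 78 h, with library values of 60.6, 65.7 and 59.5, and 84.6 ± 7.51 in the RA organoids of 78 h, with library values of 93.2, 80.8 and 79.8 (SD, n = 3). At 42 h the order was the other way around, with 86.8 ± 11.9 CPM per kb without RA and 72.2 ± 4.81 with RA, although the lowest untreated library (73.1) lay within the RA range of 68.2 to 77.5. The share of Cldn6 in the sum was 46.2% on day 2, 33.7% without RA and 27.4% with RA at 78 h, and that of Cldn4 was 30.9%, 16.2% and 35.1%.

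**Figure D1:**
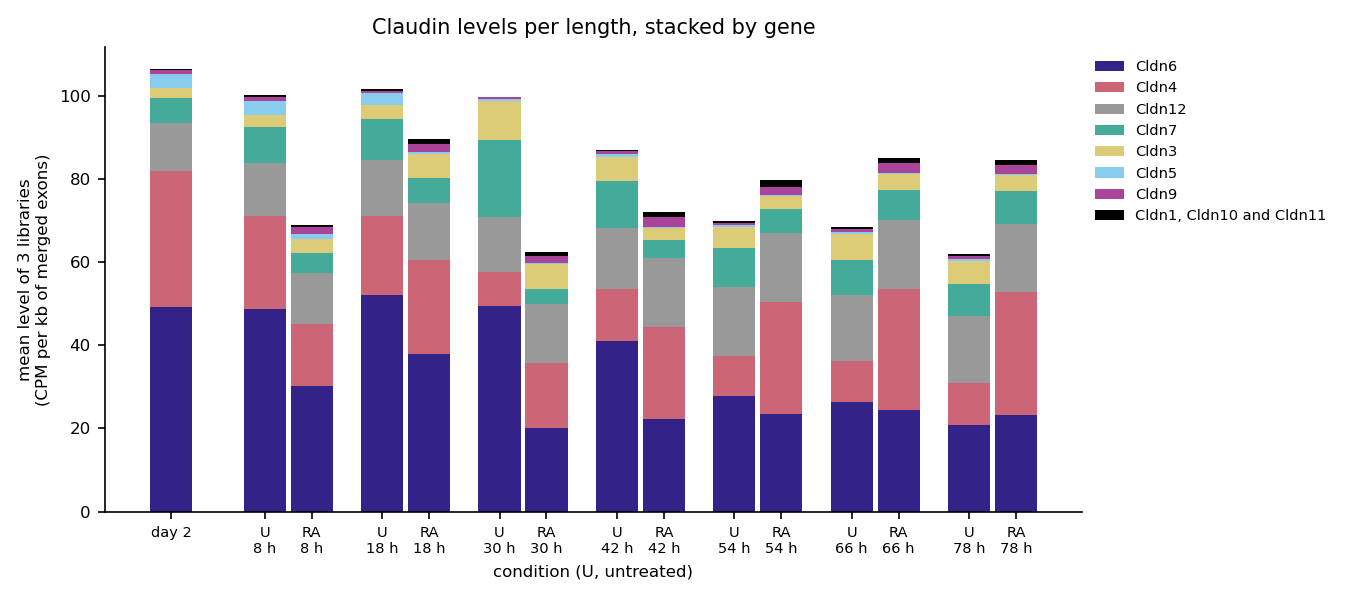
Mean level of each claudin in CPM per kb of merged exons (y axis, 3 libraries per bar), stacked by gene, for day 2 and for untreated (U) and RA organoids at each time (x axis). At 78 h the RA bar is taller (84.6 against 61.9 CPM per kb) and its Cldn4 part (29.7 against 10 CPM per kb) is the larger.

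The response of each claudin to RA was tested at each time in the 3 RA and 3 untreated libraries with the quasi-likelihood test of edgeR, and p-values were adjusted by Benjamini-Hochberg over all genes tested. A gene is called, and is said to have risen or fallen, where the adjusted p is under 0.01 and the log2 fold change is beyond 1 in size. The members that passed the filter on low counts numbered 8 of the 10 at 8 h, 9 at 18 h and 30 h, 8 at 54 h, and all 10 at 42, 66 and 78 h. At 8 h none of the 8 was called by edgeR, where 1.26% of all genes were called up and 0.537% down. At an unadjusted p under 0.05, 3 of them were lower and none higher at 8 h, and DESeq2 called 1 down and none up. At 18 h, 2 rose and 1 fell (8.17% and 2.76% of all genes). At 30 h, 1 rose and 1 fell (5.98% and 2.48% of all genes), and at 42 h, 4 rose and 2 fell (7.49% and 4.96%). From 54 h on, 4 rose and none fell at each time, against 7.17% up and 5.99% down of all genes at 54 h. These shares were 7.06% and 4.44% for 66 h, and 7.66% and 4.03% for 78 h. In the downward direction, an unadjusted p under 0.05 was reached by 2 members at 54 h and by 1 each at 66 h and 78 h, and DESeq2 called none down at these times. For this unadjusted limit, at 8 h as well, the share of all genes is not given here. The median log2 fold change of the members tested was -0.56, 0.25 and 0.10 at 8, 18 and 30 h. It was 0.49, 0.71, 0.29 and 0.43 at 42, 54, 66 and 78 h. Over all genes the median lay between -0.01 and 0.04 at these times.

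**Figure D2:**
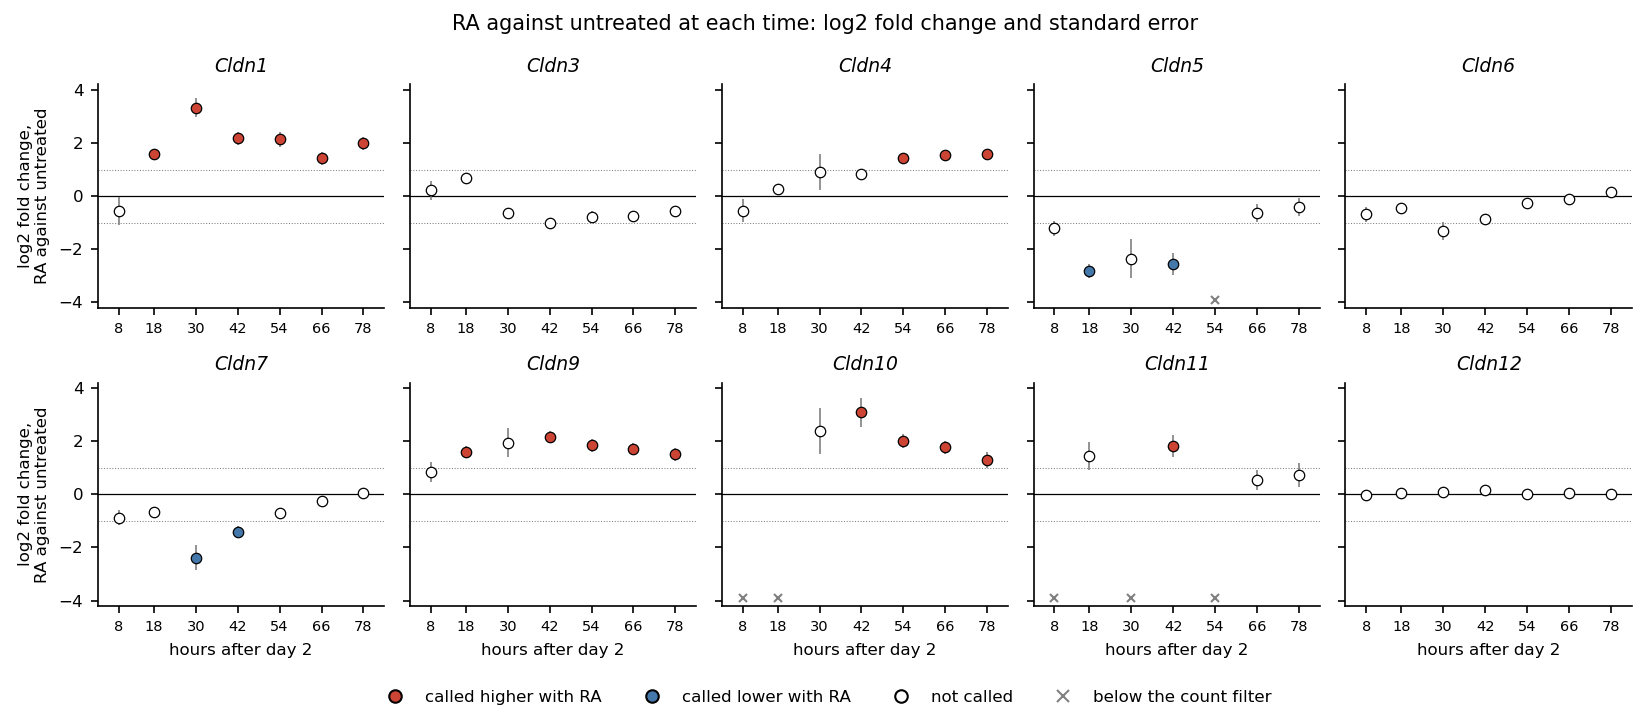
Log2 fold change of RA against untreated organoids (y axis) with its standard error at each time (x axis, hours after day 2), 1 panel per gene. Red points are called higher, blue points called lower, open points are not called and crosses mark times below the count filter. Cldn1 is red from 18 h on, Cldn9 at every time from 18 h on except 30 h, Cldn4 from 54 h on, and Cldn5 and Cldn7 are blue only at times up to 42 h.

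Cldn1, a sealing claudin of many epithelia, had risen by 18 h and was called at every later time. Its levels at 18 h were 1.04, 1.21 and 1.22 CPM without RA and 3.3, 3.49 and 3.68 CPM with RA, so the arms did not overlap (log2 fold change 1.59, SE 0.18, adjusted p = 1.2e-05 by edgeR). The difference was 2.17 on the log2 scale at 42 h (SE 0.26) and 1.98 at 78 h (SE 0.25, adjusted p = 6.3e-05 by edgeR), where the untreated libraries read 0.466, 0.781 and 0.542 CPM and the RA libraries 2.16, 2.79 and 2.2 CPM. At 30 h, Cldn1 was at 0.412, 0.183 and 0.204 CPM without RA and at 3.14, 2.94 and 2.56 CPM with RA. That log2 fold change of 3.33 (SE 0.35) was 3.29 without RA replicate 2, the RA library of 30 h whose Y chromosome genes were not low. Only 3 to 11 counts stood behind each untreated value of Cldn1 at 30 h.

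Cldn9 rose with RA at 18 h and from 42 h on. At 78 h it stood at 1.11, 0.81 and 1.22 CPM without RA and at 3.64, 2.86 and 2.34 CPM with RA, a log2 fold change of 1.50 (SE 0.23, adjusted p = 3.3e-04 by edgeR). Its difference was largest at 42 h, where 0.761 ± 0.0629 CPM without RA compared with 3.43 ± 0.341 CPM with RA (log2 fold change 2.16, SE 0.21). Over all times, untreated levels of Cldn9 lay between 0.509 and 1.6 CPM and those with RA between 1.04 and 4.17 CPM. At 30 h the arms did not overlap (0.786, 0.549 and 0.509 CPM without RA, 2.13, 4.17 and 1.04 CPM with RA), but the change of 1.95 was not called (adjusted p = 0.031 by edgeR). Of 8 endoderm markers, Sox17 among them, 6 of 6 tested also rose at 18 h, 5 of 6 at 42 h and 4 of 6 at 78 h. Their sum was 11.5 to 12.8 CPM without RA and 45.1 to 45.8 CPM with RA at 18 h, 12.7 to 14.2 and 58 to 60 CPM at 42 h, and 19.2 to 22 and 40.4 to 42.8 CPM at 78 h. Ttr was at 0 in both arms at 18 h. The part of such cells in the Cldn1 and Cldn9 levels was not tested.

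Cldn10, which encodes channel-forming claudins, was close to the floor of detection at first. It had 11, 28 and 13 counts in the RA libraries of 30 h, against 0, 4 and 2 without RA (log2 fold change 2.38, SE 0.86, adjusted p = 0.078 by edgeR, and 1.86 without RA replicate 2). Before that, it had 1, 0 and 3 counts in the day 2 libraries and at most 4 in any library of 8 h and 18 h, where it did not pass the filter. At 42 h it had 4, 5 and 0 counts without RA and 22, 23 and 29 counts with RA, or 0.116 ± 0.102 CPM against 1.02 ± 0.133 CPM (log2 fold change 3.09, SE 0.55, adjusted p = 8.8e-04 by edgeR). At 54 h the levels were 0.411, 0.596 and 0.52 CPM without RA and 1.73, 2.26 and 2.28 CPM with RA. By 78 h the untreated libraries had reached 0.502, 0.637 and 0.868 CPM and the RA libraries stood at 1.65, 1.12 and 2.2 CPM, a difference of 1.28 (SE 0.30, adjusted p = 0.0048 by edgeR). That call at 78 h was lost without RA replicate 3 (adjusted p = 0.017) and without untreated replicate 1 or 2 (adjusted p = 0.023 each). Cldn11, known from myelin, stayed under 1 CPM in every library. Among the 4 times at which it passed the filter, it rose only at 42 h (0.19 ± 0.0797 CPM without RA, 0.695 ± 0.127 CPM with RA, log2 fold change 1.83, SE 0.42, adjusted p = 0.004 by edgeR), and that call was lost with DESeq2 (adjusted p = 0.019) and in 4 of the 6 fits that left out a library. Of 8 oligodendrocyte markers, which include myelin genes, Opalin was at 0 in every condition, and their summed level at 42 h was 37.7 to 42.9 CPM without RA and 51.7 to 55.6 CPM with RA. The part of such cells in the Cldn11 level was not tested.

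Cldn4, a claudin of simple epithelia, showed a late response. At 18 h it read 36.6, 31.4 and 36.6 CPM without RA and 39.6, 42.7 and 41.6 CPM with RA, a small difference (log2 fold change 0.25, SE 0.07, adjusted p = 0.0075 by edgeR) within the fold limit. Its adjusted p was as high as 0.63 in the alternative fits by edgeR or DESeq2. The arms then moved apart, with 0.82 on the log2 scale at 42 h (SE 0.10), and calls of 1.42 at 54 h (SE 0.08) and 1.55 at 66 h (SE 0.09). At 78 h, Cldn4 stood at 20.8, 18.5 and 15.4 CPM without RA and at 60.9, 51.1 and 50 CPM with RA (log2 fold change 1.57, SE 0.11, adjusted p = 7.2e-07 by edgeR). The RA effect at 78 h exceeded that at 18 h by 1.30 (SE 0.14, adjusted p = 2.1e-06 by the interaction term in edgeR), which was not past the threshold when all 45 libraries were fitted together (adjusted p = 0.047). The 9 markers of surface ectoderm and simple epithelium include the keratin genes Krt8, Krt18, Krt19 and Krt7. At times when Cldn4 was not called, 4 of the 7 tested had risen (18 h, with a sum of 63 to 69.8 CPM without RA and 134 to 150 CPM with RA) and then all 7 tested (42 h, 62.2 to 69.6 and 210 to 225 CPM). All 7 of those tested rose at 78 h, and the sum of the 9 was 59.4 to 69.2 CPM without RA and 684 to 702 CPM with RA, and none of the 9 was at 0 throughout either arm. The 8 trophoblast markers summed to 26.8 to 29.6 CPM without RA and 208 to 214 CPM with RA at the same time. Tfap2c and Krt7 are in both of these lists, so that the sums are not independent. The part of such cells in the Cldn4 level was not tested.

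Cldn5, the endothelial claudin, had the largest decrease of the members called at 18 h and 42 h. On day 2 it was at 5.55, 3.77 and 5.7 CPM. At 18 h it was at 4.24, 2.83 and 4.42 CPM without RA and at 0.704, 0.493 and 0.433 CPM with RA, a 7.02-fold difference (log2 fold change -2.81, SE 0.26, adjusted p = 1.9e-06 by edgeR). At 8 h the arms were already apart, with 4.53, 3.68 and 5.68 CPM against 1.92, 2.6 and 1.36 CPM, but the change of -1.21 was not called (adjusted p = 0.036 by edgeR). Without RA replicate 3, the RA library of 8 h with low Y chromosome genes, that change was -1.03 and was called (adjusted p = 0.0021 by edgeR). At 42 h with RA, 0.186, 0.307 and 0.0793 CPM were left (log2 fold change -2.56, SE 0.41). Untreated organoids lost Cldn5 later, to 1.15 ± 0.0571 CPM at 42 h and 0.632 ± 0.2 CPM at 78 h, where the RA libraries held 0.341, 0.51 and 0.559 CPM and overlapped with them (log2 fold change -0.42, SE 0.34). The difference between arms was smaller at 78 h than at 18 h, by 2.37 on the log2 scale (SE 0.46, adjusted p = 5.6e-04 by the interaction term in edgeR). Of 8 pluripotency and epiblast markers, Pou5f1 and Dnmt3b among them, 5 also fell at both 18 h and 42 h, and 4 were down by 78 h. Their sum was 3523 to 3832 CPM without RA and 972 to 1082 CPM with RA at 18 h and 2287 to 2667 and 364 to 488 CPM at 42 h, and none of the 8 was at 0 throughout a condition. Nanog, Zfp42 and Esrrb, also on this list, were not called at any time. Their log2 fold changes at 78 h were 0.20, 0.68 and 0.76. The 8 endothelial markers summed to 119 to 139 CPM on day 2. Their sum was 73.6 to 92.6 CPM without RA and 96.5 to 108 CPM with RA at 18 h, Emcn was at 0 in all RA libraries of 18 h, and 2 of 6 markers tested there rose (Tie1 and Sox17, the latter also among the endoderm markers) while Kdr fell. At 78 h the sum was 19.1 to 23.7 CPM without RA and 61.4 to 77.1 CPM with RA. The part of either kind of cell in the Cldn5 level was not tested. At 54 h Cldn5 was not tested, with 10, 8 and 17 counts without RA and 5, 3 and 3 counts with RA.

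Cldn7 and Cldn6, claudins of embryonic epithelia, were lower with RA in the first 2 days of treatment, Cldn7 also at 54 h, and overlapped with the control at the end. Cldn7 read 23.1, 15.3 and 27.2 CPM without RA at 42 h and 8.33, 9.33 and 7.29 CPM with RA (log2 fold change -1.40, SE 0.19, adjusted p = 1.2e-04 by edgeR). Its difference at 54 h was -0.72 (SE 0.09, adjusted p = 8.3e-05 by edgeR), within the fold limit, and the arms did not overlap. At 78 h Cldn7 read 13.8, 16.1 and 14.3 CPM without RA and 17.2, 13.9 and 14.9 CPM with RA, and the arms overlapped. Cldn6 was below the control in every library at 18 h, with 88.6, 88.3 and 91.6 CPM without RA and 60.1, 65.2 and 70 CPM with RA (log2 fold change -0.45, SE 0.06, adjusted p = 4.1e-05 by edgeR). Its adjusted p at 18 h was as high as 0.092 in the alternative fits by edgeR or DESeq2. At 42 h the Cldn6 difference was -0.88 (SE 0.14), still within the fold limit, between 78, 58 and 75.5 CPM without RA and 32.2, 46.4 and 36.8 CPM with RA. At 78 h the arms overlapped, at 36 ± 3.86 CPM without RA and 39.9 ± 4.26 CPM with RA. The part of the lower sum of pluripotency and epiblast markers, given beside Cldn5, in these values was not tested.

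Cldn3, a sealing claudin, was higher with RA at 18 h and lower afterwards. At 18 h it was at 3.7, 4.33 and 5.4 CPM without RA and at 6.86, 7.15 and 7.79 CPM with RA (log2 fold change 0.68, SE 0.14, adjusted p = 0.0013 by edgeR). At 42 h the order was turned, with 8.4, 6.2 and 7.65 CPM without RA and 3.44, 3.26 and 4.48 CPM with RA, a difference of 2-fold (SE 0.17 on the log2 scale, adjusted p = 6.8e-04 by edgeR) that ended just inside the fold limit. At 78 h it was -0.55 (SE 0.15), with 5.92, 7.64 and 7.37 CPM against 5.63, 4.46 and 4.19 CPM. Neither direction was called at a single time, yet the RA effect at 78 h was below that at 18 h by 1.26 on the log2 scale (estimate -1.26, SE 0.22, adjusted p = 2.1e-04 by the interaction term in edgeR), which was called.

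The interaction term called 2 of the 10 members up (Cldn4 and Cldn5) and 1 down (Cldn3) between 18 h and 78 h, against 3.85% and 7.04% of all genes tested. For Cldn5 the upward call stands for a deficit at 18 h that was smaller at 78 h, and for Cldn4 for an excess at 78 h that was smaller at 18 h. The same term gave 0.58 for Cldn6 (SE 0.12) and 0.72 for Cldn7 (SE 0.16), both with an adjusted p under 0.01 but inside the fold limit, and 0.36 for Cldn1 (SE 0.30). Among the alternative fits by edgeR or DESeq2, the highest adjusted p of this term was 0.15 for Cldn6 and 0.13 for Cldn7.

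Cldn12, a claudin outside the classical group by its sequence, was not called at any time. It stood at 66.4, 69.1 and 70 CPM without RA and at 69.1, 68.9 and 68.8 CPM with RA at 78 h. Its largest log2 difference between the arms was 0.17 at 42 h (SE 0.05, adjusted p = 0.019 by edgeR), where 62.7, 61.6 and 61.9 CPM compared with 72.8, 69.2 and 68.7 CPM and the arms did not overlap.

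**Figure D3:**
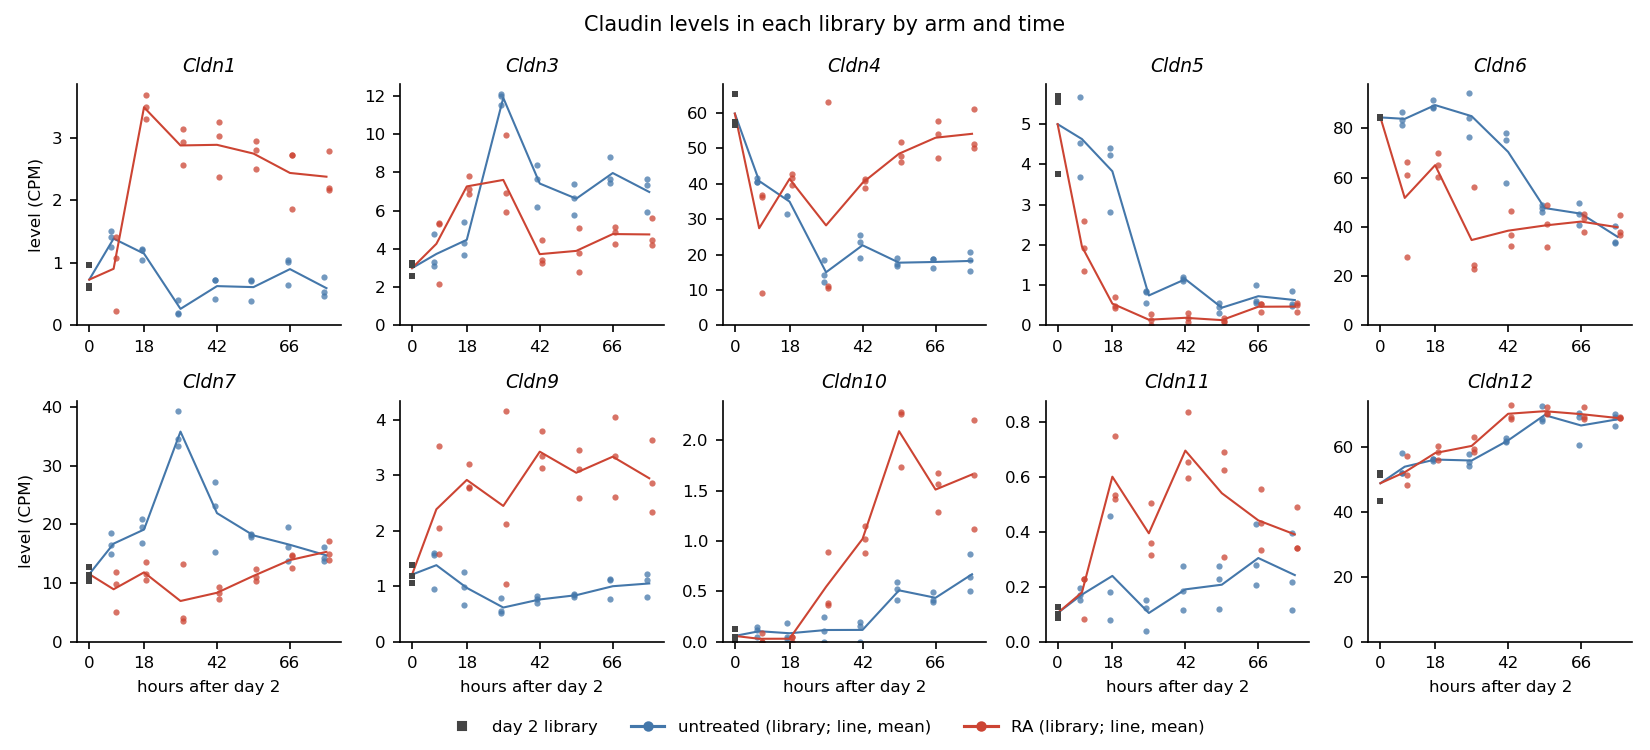
Level in CPM (y axis, from 0) of each claudin in each library against hours after day 2 (x axis). Black squares are day 2 libraries, blue points untreated and red points RA libraries, and lines join the means of 3 libraries. Cldn5 ends low in both arms (0.632 and 0.47 CPM at 78 h), the arms of Cldn12 stay close (68.5 and 68.9 CPM at 78 h), and at 30 h the RA libraries of Cldn4 split into 63 CPM and 10.5 to 11 CPM.

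The claudins also changed with time, and each arm was compared with the same 3 day 2 libraries. Without RA, none of the 8 members tested was called at 18 h by edgeR, against 3.2% of all genes called up and 1.35% down. DESeq2 called none either. At an unadjusted p under 0.05, 5 of these members were higher and 1 was lower. The share of all genes at that limit is not given here. At 42 h, 1 rose and 2 fell (13.2% and 8.56% of all genes), or 2 and 2 with library totals in place of TMM, and at 78 h, 2 rose and 3 fell (20.3% and 13.6%). Cldn3 rose from 3 ± 0.342 CPM on day 2 to 7.42 ± 1.12 CPM at 42 h and 6.98 ± 0.929 CPM at 78 h (log2 fold changes 1.33 and 1.26). Cldn4 fell from 59.7 ± 4.72 CPM to 22.6 ± 3.42 CPM at 42 h and 18.2 ± 2.68 CPM at 78 h, by 1.36 and 1.68 on the log2 scale. Cldn6, at 84.5, 84.2 and 84.6 CPM on day 2, was called only at 78 h, where it had dropped by 1.18. Cldn10 rose by 3.46 (SE 0.62) at 78 h, a fold that rests on the few day 2 counts given above. With day 2 replicate 3 as the only day 2 library, the one of the same library series as the 78 h libraries, the change was 2.42 (adjusted p = 0.013), a fit that takes its spread from the 3 libraries of 78 h.

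With RA, 4 of 9 members tested rose and 1 fell at 18 h (14.5% and 5.71% of all genes), 4 rose and 2 fell at 42 h (19.8% and 12.3%), and 3 of 9 rose and 2 fell at 78 h (22.9% and 14.5%). With library totals in place of TMM, which raised the median of all genes by 0.16 to 0.20 in these comparisons (and by 0.12 and 0.14 for RA against untreated organoids at 18 h and 30 h), 1 member in place of 2 fell at 42 h and at 78 h. At 18 h the same scaling moved the calls over all genes from 2383 up and 940 down to 3027 up and 650 down. Cldn1 and Cldn9 rose at all 3 times, by 1.71 and 1.31 at 78 h (SE 0.27 and 0.24). Cldn3 rose at 18 h (1.27, SE 0.15) and then stood at 0.33 at 42 h (SE 0.19) and 0.69 at 78 h (SE 0.18), which were not called. Cldn4 was not called against day 2 at any of these times, and its 78 h libraries with RA (50 to 60.9 CPM) overlapped with those of day 2 (56.5 to 65.1 CPM). Cldn6 fell by 1.11 at 42 h and by 1.05 at 78 h, and it is the member that was not called with library totals (-0.94 and -0.89). Cldn5 fell by 3.20 at 18 h, by 4.65 at 42 h and by 3.40 at 78 h. Cldn11 rose at 18 h and 42 h (2.47 and 2.70, SE 0.52 and 0.48) from 3, 2 and 2 counts on day 2. Cldn12 was higher than on day 2 in both arms at 78 h, by 0.53 (SE 0.07) in each comparison, inside the fold limit.

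Of these genes, Cldn3 and Cldn4 are neighbours on chromosome 5, and Cldn6 and Cldn9 on chromosome 17. In the GENCODE annotation of GRCm38, Cldn3 (ENSMUSG00000070473) lies at chr5:134986214-134987472 on the plus strand and Cldn4 (ENSMUSG00000047501) at chr5:134945119-134946934 on the minus strand, each a gene of 1 exon, with start sites that face away from each other across 39279 bp. Cldn6 (ENSMUSG00000023906, chr17:23679249-23682446, plus strand) and Cldn9 (ENSMUSG00000066720, chr17:23682584-23684026, minus strand) converge, with 137 bp between their 3′ ends. The library kit keeps strand, but the sources used here do not say whether counting used it, so that reads running past the end of Cldn6 could be counted for Cldn9. The part of such reads in the Cldn9 values was not tested.

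The ratio of 2 genes within a library does not depend on how libraries are scaled. The ratio of Cldn4 to Cldn3, both per length, was 12.6, 15 and 13.9 in the day 2 libraries. In untreated organoids of 18 h it was 6.87, 5.03 and 4.7. At 42 h without RA it was 1.93, 2.11 and 2.32, and at 78 h it read 2.43, 1.68 and 1.45. In the RA arm it was 4, 4.14 and 3.7 for 18 h, below the untreated libraries. Later it lay above them, with 7.79, 8.75 and 6.29 in the 42 h libraries and 7.5, 7.95 and 8.27 in those of 78 h. The arms did not overlap at 6 of the 7 times, 30 h being the exception, and the exact two-sided permutation test gave p = 0.1 at these 6 times, the smallest that 3 against 3 allows. The ratio of Cldn6 to Cldn9 was lower with RA at all 7 times, again with p = 0.1 by the exact permutation test. It read 58.8, 111 and 78.4 without RA and 18.2, 19.6 and 18.3 with RA at 18 h, and 25.7, 41.9 and 23 against 10.3, 11.2 and 13.2 at 78 h.

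**Figure D4:**
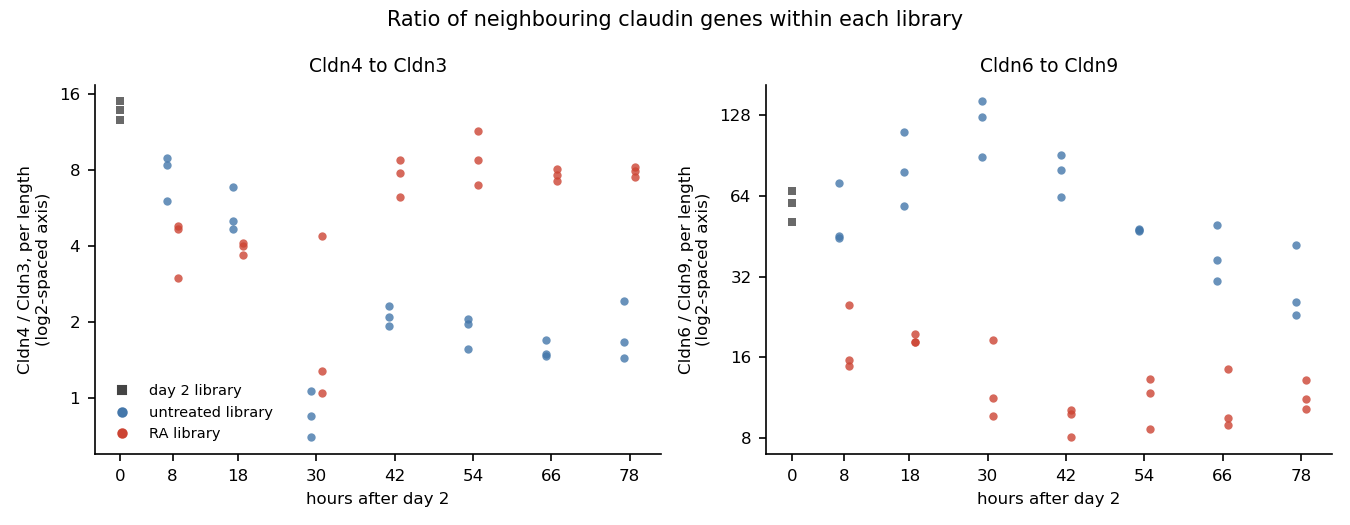
Ratio of Cldn4 to Cldn3 (left) and of Cldn6 to Cldn9 (right), per length within each library, on a log axis (y) against hours after day 2 (x). Each point is a library. The Cldn4 to Cldn3 points of the RA arm lie below the untreated points at 8 h and 18 h and above them from 42 h on, whereas the Cldn6 to Cldn9 points of the RA arm lie below at every time.

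Upstream sequences are shown for these neighbours with opposite courses, Cldn4 and Cldn3, and for a member that rose and a member that fell with RA, Cldn1 and Cldn7. They are the 250 bases before the RefSeq start site in GRCm38.p6, 5′ to 3′ on the gene's own strand. Capitals mark motifs that lie wholly inside, in either orientation, from the set spelled out after the sequences.
Cldn4, chr5:134946935-134947184, minus strand: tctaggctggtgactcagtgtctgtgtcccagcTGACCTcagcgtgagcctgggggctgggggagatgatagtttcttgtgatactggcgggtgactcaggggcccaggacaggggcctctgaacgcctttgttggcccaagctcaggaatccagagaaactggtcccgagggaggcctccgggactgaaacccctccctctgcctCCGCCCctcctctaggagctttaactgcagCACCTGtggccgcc
Cldn3, chr5:134985964-134986213, plus strand: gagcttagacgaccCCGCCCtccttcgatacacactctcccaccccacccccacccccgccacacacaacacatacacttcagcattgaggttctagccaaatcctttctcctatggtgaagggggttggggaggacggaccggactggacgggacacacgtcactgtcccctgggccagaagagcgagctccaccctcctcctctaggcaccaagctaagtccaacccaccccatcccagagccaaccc
Cldn1, chr16:26371840-26372089, minus strand: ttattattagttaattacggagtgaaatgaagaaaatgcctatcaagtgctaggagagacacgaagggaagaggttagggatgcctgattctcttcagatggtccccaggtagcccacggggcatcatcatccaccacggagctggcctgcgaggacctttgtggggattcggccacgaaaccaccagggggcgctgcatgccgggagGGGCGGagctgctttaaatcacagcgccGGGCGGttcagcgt
Cldn7, chr11:69964529-69964778, plus strand, the first of 2 start sites: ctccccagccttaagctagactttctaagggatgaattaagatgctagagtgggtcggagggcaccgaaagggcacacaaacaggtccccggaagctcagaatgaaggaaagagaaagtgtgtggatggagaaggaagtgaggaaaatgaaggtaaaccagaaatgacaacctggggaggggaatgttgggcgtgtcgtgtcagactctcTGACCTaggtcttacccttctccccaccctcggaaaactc

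In all, 9 of the 10 genes matched the RefSeq promoter table, with 13 start sites, and motifs were counted from 250 bases before to 50 after each site. The hexamer AGGTCA, which nuclear receptors such as the RA receptors bind in pairs, was found at 3 of the 13 sites, the site of Cldn4 (first base at -217 from the start, on the opposite strand) and both sites of Cldn7, and in 16.3% of the 32851 promoters of that table. Pairs of it spaced by 5 or by 2 bases in the same orientation, each found in 3 promoters of the table, were found at none of the 13. Only these pairs contain another of the motifs searched. The E-box CACCTG, which repressors of the Snail and Zeb families bind, stood at the sites of Cldn3, Cldn4, Cldn6 and Cldn7 (4 of 13, beside 20.2% of all promoters). In Cldn4 it lies at -14 and again at 12 from the start, on opposite strands, and in Cldn7 it is at the second start site only. The GC box GGGCGG was present at 10 of the 13 sites (35.7% of all promoters). AACCGGTT, a form of the Grhl site (0.1% of all promoters), and TATAAA (13.6%) were at none. Only exact letters were searched. AACCGGTT and the spaced pairs are so rare among all promoters that their absence from 13 sites tells little about the members. Start sites 2 and 3 of Cldn12 have overlapping windows and count the same GC box, at -13 from the former and -73 from the latter. These letters are matches in a window and not measured binding sites.

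At 8 h and 30 h, libraries of 1 condition disagreed for Cldn4, Cldn6 and Cldn7. At 8 h with RA, Cldn4 was at 36.7, 36.2 and 9.27 CPM, Cldn6 at 66.3, 61 and 28 CPM and Cldn7 at 11.9, 9.74 and 5.09 CPM, the lowest value being that of the library with low Y chromosome genes each time. Without that library, the change at 8 h was -0.14 for Cldn4 in place of -0.55, -0.39 for Cldn6 in place of -0.68 and -0.61 for Cldn7 in place of -0.88, while Cldn9 was at 1.04 in place of 0.83. The same library had the lowest sums of simple epithelium markers (63.1 CPM, against 137 and 144) and of trophoblast markers (55.8 CPM, against 124 and 130). Tfap2c, a gene of both lists, made up most of both sums. It was at 50 CPM in that library, against 113 and 106 CPM.

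At 30 h with RA, Cldn4 was at 11, 63 and 10.5 CPM, Cldn6 at 24.6, 56.3 and 23.1 CPM and Cldn7 at 3.53, 13.2 and 4.05 CPM, and the high value was that of replicate 2, whose Y chromosome genes were not low. The untreated libraries of 30 h, all with low Y chromosome genes, held 14.2, 18.4 and 12.3 CPM of Cldn4. Cldn4 was not called at 30 h (log2 fold change 0.90, SE 0.68), and without RA replicate 2 it took the other direction, at -0.49 (adjusted p = 0.0057 by edgeR). Cldn7 fell at 30 h (-2.38, SE 0.48, adjusted p = 0.0094 by edgeR), from 33.4, 39.3 and 34.6 CPM without RA. That fall was -3.25 without RA replicate 2, while the call was lost in each of the other 5 fits that left out a library (adjusted p of 0.022 to 0.04). It was also lost with library totals in place of TMM (adjusted p = 0.013), which left 1 member up and 0 down. Cldn6 was not called at 30 h (-1.31, SE 0.33, adjusted p = 0.024 by edgeR), and without RA replicate 2 it was called (-1.85). Cldn5, Cldn9 and Cldn3 had log2 fold changes of -2.35, 1.95 and -0.65 at 30 h with adjusted p of 0.051, 0.031 and 0.05, and without RA replicate 2 Cldn5 and Cldn9 were called (-3.23 and 1.30) and Cldn3 was at -0.90. RA replicate 2 of 30 h had the highest sums of simple epithelium markers (236 CPM, against 57.9 and 54.9) and trophoblast markers (95.6 CPM, against 26.1 and 26.2). Tfap2c, which counts in both sums, was at 56.6 CPM there, against 18.5 and 19.3 CPM. The part of these differences between libraries in the claudin levels was not tested. Leaving out RA replicate 2 sets libraries with low Y chromosome genes against each other, and the reverse comparison cannot be made, since all 3 untreated libraries of 30 h are among them.

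**Figure D5:**
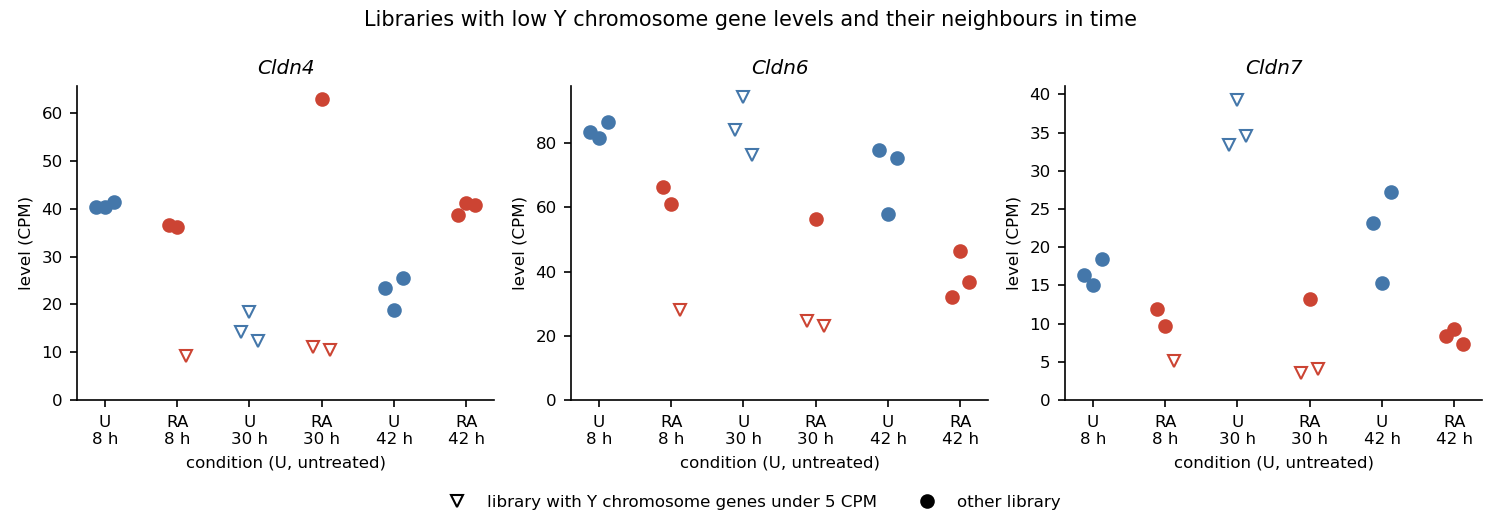
Levels in CPM (y axis, from 0) of Cldn4, Cldn6 and Cldn7 in single libraries of untreated (U, blue) and RA (red) organoids at 8, 30 and 42 h (x axis). Open triangles are the 6 libraries in which 4 genes of the Y chromosome averaged 1.22 to 3.73 CPM. Among the RA libraries of 8 h and 30 h, the open triangles lie below the filled points for all 3 genes.

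The other tight junction genes give the setting of these results, and counts at some time are read beside the 16% of the 18352 genes tested that rose, and the 9.14% that fell, at 1 or more of the 7 times. Of 18 further claudin genes in the table, 5 passed the filter in any of the RA comparisons, and 2 rose at some time (Cldn2 at 30, 42 and 54 h, and Cldn8 at 18, 54, 66 and 78 h) while none fell. Cldn8, a sealing claudin of kidney and gut epithelium, was at 0.0359, 0.116 and 0 CPM without RA and at 1.31, 1.02 and 0.874 CPM with RA at 78 h, and its call at 18 h was lost without RA replicate 2 or 3 (adjusted p = 0.011 each). Of 10 other tight junction membrane proteins, 3 rose and 2 fell at some time. Ocln (occludin) fell at 54, 66 and 78 h, and at 78 h it was at 9.33 CPM without RA and 4.44 CPM with RA (log2 fold change -1.07, SE 0.15), which came inside the fold limit without RA replicate 3 (-0.98) or untreated replicate 2 (-0.95). Marveld3, a relative of occludin, fell at 6 of the 7 times, with -2.76 at 42 h (SE 0.20) and -1.03 at 78 h (SE 0.18). Its call at 78 h was lost without RA replicate 2 (-0.99) or untreated replicate 1 (-0.90), and at 30 h it was at -2.55 without RA replicate 2. Of 19 scaffold and cytoplasmic proteins, none rose and only Magi2 fell (at 42, 54 and 66 h), while the other 18 were not called at any time. Tjp1, which encodes ZO-1, was at 263 CPM without RA and 256 CPM with RA at 78 h.

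Among 17 transcription factors known to regulate epithelial genes, claudins included, 11 rose and 2 fell at some time (16% and 9.14% of all genes). The list pools activators and repressors. Snai1, Snai2, Zeb1 and Zeb2, of the Snail and Zeb families of repressors, were among those that rose. Cdx2 was called in both directions. Grhl2, an activator of claudin genes, fell from 8 h to 66 h. It was at 140 CPM without RA and 45 CPM with RA at 8 h (log2 fold change -1.62, SE 0.17, adjusted p = 0.0019 by edgeR) and at 17.6 and 11.4 CPM at 78 h (-0.63, SE 0.15). The Grhl2 call at 8 h was lost without any 1 of the untreated libraries (adjusted p of 0.016 to 0.02), and without RA replicate 3 the change was -1.44. At 30 h the Grhl2 change was -3.41 without RA replicate 2, and the call was lost in each of the other 5 fits that left out a library (adjusted p of 0.011 to 0.025). Tfap2c, a factor of surface ectoderm and trophoblast, rose at 5 times, with 34.4 CPM without RA and 88.8 CPM with RA at 18 h, and 14.7 and 74 CPM at 78 h (log2 fold change 2.34, SE 0.08). Cdx2 rose at 18 h (1.07, SE 0.13), fell at 42 h (-1.53, SE 0.24) and 54 h, and rose again at 78 h (1.75, SE 0.30). The Cdx2 call at 18 h was lost without RA replicate 1 (0.96) or untreated replicate 2 (0.98), and those at 18 h and 54 h in 1 fit of all 45 libraries (adjusted p of 0.04 and 0.013). Of 11 genes whose products bind or process claudins, 5 rose and 3 fell at some time (16% and 9.14% of all genes). Epcam, whose product binds and stabilises Cldn7, fell at 30, 42, 54 and 66 h. The Epcam change at 30 h was -1.35 without RA replicate 2, and that at 66 h came inside the fold limit without untreated replicate 2 (-0.99). At 42 h Epcam was at 221 CPM without RA and 73.4 CPM with RA (-1.59, SE 0.08), and at 78 h at 108 and 64.7 CPM (-0.73, SE 0.12), when Cldn7 did not differ beyond the spread of the libraries.

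The course over the 15 conditions was compared between genes by Pearson's r of the mean log2(CPM + 1), as a description over points that share the day 2 libraries and the uneven 30 h libraries. Among the members, Cldn1 was most like Cldn9 and Cldn11 (r = 0.89 each), and Cldn9 with Cldn11 and Cldn10 with Cldn12 followed (0.82 each). The values with Cldn10 and Cldn11 rest on few counts. Cldn5 was like Cldn6 (r = 0.78) and ran against Cldn12 (-0.79). The neighbours Cldn3 and Cldn4 also ran against each other (r = -0.77), and Cldn6 and Cldn12 nearly as much (-0.73). Of 14317 genes with a mean of at least 1 CPM, those most like Cldn4 were Snai1 (r = 0.962), Tfeb (0.952) and Mylip (0.940). Snai1, a repressor of epithelial genes, was at 1.44 ± 0.143 CPM without RA and 5 ± 0.616 CPM with RA at 78 h. Most like Cldn9 were Foxa1 (r = 0.974), Phf13 and Trim16 (0.972 each), and most like Cldn5 were Hmgxb4 (0.981), Slc38a2 and Zfp750 (0.978 each). For Cldn1 they were Ip6k1, Serping1 (0.930 each) and Dact1 (0.929), for Cldn3 Sncb (0.960), Mef2b (0.942) and the gene ENSMUSG00000064052 (0.930), and for Cldn6 Tnk1 (0.944), Adnp2 (0.940) and Trim33 (0.938). Cldn7 had the weakest matches, Coro2b (0.924), St6gal2 (0.886) and Slc25a33 (0.858), and Cldn12 was most like Map2k4 (0.976), Zbtb39 and Tspan12 (0.970 each). Cldn10 and Cldn11 were compared with the members only and not with these other genes, since their means over the 45 libraries were 0.598 and 0.32 CPM.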

How the data were processed

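Poly(A) RNA of whole organoids was sequenced with a directional kit, as 1 library for each of 45 samples. Per the labels and the study's methods, the authors trimmed reads (Trim Galore 0.5.0), removed abundant sequences (Bowtie2 2.3.4.1), aligned to GRCm38 with STAR and counted reads in genes with featureCounts (Subread 1.6.2). The deposited values are raw counts, without pooling. The strand setting and the treatment of reads with several matches are not given in the sources used here. The labels' treatment text gives the RA dose in micromolar and the last times 2 h later than the titles and design text, which were followed here.

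Claudin rows were found by Ensembl identifier. The members and gene lists were chosen with earlier results of these data known. Each comparison of 6 libraries (12 for the interaction of RA and time) was fitted over all genes passing filterByExpr (minimum count 10) with edgeR 4.0.16 in R 4.3.3, with TMM scaling, the quasi-likelihood test and Benjamini-Hochberg adjustment. Calls needed an adjusted p under 0.01 and a change beyond 1 on the log2 scale, the limits of the study. The same 3 day 2 libraries served both arms. DESeq2 1.42.0, other scalings, no filter, 1 fit of all libraries, a replicate block, library series and leaving out each library were alternatives. The earlier library series has label numbers below 10000 and the later series those above, a split made here whose meaning the labels do not give. The later series holds all libraries of 66 h and 78 h. It also holds day 2 replicate 3, RA 30 h replicates 2 and 3 and untreated 54 h replicate 3. On simulated counts for 78 h (17059 genes), 100% of 200 genes changed 4-fold were recovered, and likewise for the interaction (18017 genes). The changed genes were drawn from those with higher counts, and all genes had the same fixed spread between libraries. Levels as low as those of Cldn1, Cldn5, Cldn9, Cldn10 and Cldn11 were not covered. No replicate pair agreed within sampling noise (lowest mean chi-square per gene 1.97 over 45 pairs). A floor is 3 counts and covers counting error only.

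Beside all members, genes of other lists were named where called at 4 or more of the 7 times, plus Epcam, Tjp1 and Ocln. Cldn2, Magi2, Snai2, Zeb1, Zeb2 and single markers were named after their values were seen. The symbols Cldn25, Cldn26, Igsf5 and Pals1 had no match in the table. For each member with a mean of at least 1 CPM, the 3 genes with the highest r were named.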

Additional observations from a re-analysis of the deposited data

Results flagged for a closer look

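The effect of RA differed between 18 h and 78 h for 3 claudins, by the interaction term of edgeR's quasi-likelihood fit over 12 libraries with Benjamini-Hochberg adjustment. Cldn5 differed by 2.37 on the log2 scale (adjusted p = 5.6e-04), from a fall of 2.81 at 18 h to -0.42 at 78 h. Cldn4 differed by 1.30 (adjusted p = 2.1e-06), from 0.25 to 1.57. Cldn3 differed by -1.26 (adjusted p = 2.1e-04), from 0.68 to -0.55. Single samples were not screened as outliers, since every group has 3 libraries.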

How the results depend on the processing

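Of 211 counts of called members under alternatives, 174 stayed within 1.5 times the reported count, and of 682 log2 fold changes of members 652 kept their direction and side of the threshold, 9 lost and 20 gained a call and 1 reversed. Cldn4 at 30 h reversed to -0.44 in the earlier library series alone and to -0.49 without RA replicate 2, and Cdx2 to -0.49 and -0.21. In each of these, RA replicate 2 was left out, and the earlier series at 30 h holds only 1 RA library (replicate 1), so that its spread comes from the 3 untreated libraries. Over all fits without 1 library they ranged from -0.49 to 1.29 and from -0.21 to 1.65.

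With adjusted p limited at 0.05 and any fold accepted, members called for RA against untreated were 1 down at 8 h, 5 up and 3 down at 18 h, 2 up and 3 down at 30 h, 6 up and 4 down at 42 h, 4 up and 2 down at 54 h, and 4 up and 1 down at 66 h and at 78 h. Against day 2 they were 3 up and 1 down at 18 h, 3 up and 3 down at 42 h and 4 up and 3 down at 78 h without RA. With RA they were 5 up and 3 down at 18 h, 5 up and 4 down at 42 h and 6 up and 2 down at 78 h. The interaction gave 4 up and 1 down. The share of all genes at this looser limit is not given here. These counts show only how the calls of members depend on the limit. At 8 h, DESeq2, no filter and 1 fit of all 45 libraries each gave 1 down. At 30 h, DESeq2 and no filter gave 2 up and 2 down, all 45 libraries 4 up and 3 down, the earlier series 2 up and 4 down, and library totals 0 down. The fit of all 45 libraries gave 1 down at 54 h and 1 up for the interaction. Library totals gave 1 down for RA at 42 h and 78 h against day 2, and 2 up for untreated 42 h, as did the earlier series. The later series, with 1 day 2 library, gave 1 up for untreated 78 h. The cause was not tested.

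Of 258 log2 fold changes of other named genes without 1 library, 17 lost and 3 gained a call and 1 reversed. Leaving out 1 library gave ranges of 0 to 1 down at 8 h (1 without RA replicate 3), 1 to 2 up and 0 to 3 down at 30 h, 2 to 4 down at 42 h (4 without untreated replicate 2), and 0 to 1 down at 54 h (1 without RA replicate 3). They were 1 to 2 up for untreated 42 h against day 2 (2 without day 2 replicate 3 or untreated replicate 2) and 1 to 2 down for RA 42 h against day 2 (1 without RA replicate 1).

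Replicate numbers do not pair the samples, with correlations of same-numbered libraries' deviations from -0.19 to 0.23. With the replicate block, 2 members in place of 1 were called down at 30 h. Cldn9 against day 2 at 78 h with RA was not called in the later series (1.34, adjusted p = 0.011). Members under 1 CPM rest on few counts.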
